A study of Bos taurus with 6 samples.

Results

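The transcripts of 3 gap junction connexins, GJA1, GJA4 and GJC1, were followed in bovine oocytes on 2-colour oligonucleotide arrays. The members were all probes whose symbol in the platform annotation was one of these 3, which gave 3 genes of 15199 named on the array and 4 probes of 43794, 2 of them for GJA1 and 1 each for GJA4 and GJC1. Oocytes came from 3 Holstein cows of second parity, which for 3 days were given follicle-stimulating hormone (FSH) every 12 h. The antagonist group was then left without FSH for 68 h (coasting) under a gonadotropin-releasing hormone (GnRH) antagonist, named cetrotide in the labels, and the control group was coasted for 68 h without it. Every cow contributed to both groups in cycles at least a month apart, so collection, cycle and RNA amplification cannot be told apart from the antagonist. The oocytes were freed of cumulus cells mechanically, and the labels describe their RNA as pools, without a number of oocytes. Each array held both RNAs of 1 cow, and each pair was hybridised in both dye orientations, which gave 6 arrays, 12 readings per probe and 1 replicate per cow (n = 3).

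Gap junctions are clusters of channels through which neighbouring cells exchange ions, nucleotides and other small metabolites, and each channel is built of connexin proteins contributed by both cells. In the ovarian follicle they join the cumulus cells to each other and, at the tips of cumulus projections that cross the zona pellucida, to the oocyte. In the mouse the oocyte contributes the connexin encoded by Gja4, whereas Gja1 encodes the main connexin between granulosa and cumulus cells and Gjc1 a further connexin of granulosa cells. Cyclic GMP that reaches the mouse oocyte through these channels helps to hold it in meiotic arrest, and luteinizing hormone (LH), whose secretion a GnRH antagonist lowers, reduces this coupling. The comparison asks whether connexin transcripts of the oocyte differed when GnRH action was blocked during coasting.

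The 4 connexin probes had slightly higher mean signals with the antagonist, by 1.07-fold to 1.17-fold, but none differed from control beyond the spread between cows. Of all probes tested, 51.4% had a positive mean ratio. A larger absolute ratio than that of GJC1 was found for 21% of them, and than that of GJA4 for 40.8%. GJC1 had the largest mean ratio, at 0.22 ± 0.25 (log2 antagonist over control, mean ± SD over cows, n = 3). The brighter GJA1 probe had 0.17 ± 0.15 and GJA4 had 0.10 ± 0.17. Each gene had its own pattern over cows: GJA1 was near 0 in cow 2, GJA4 was above 0 mainly in cow 3, and GJC1 mainly in cow 2. Limma called 0 of 32527 probes at an adjusted p under 0.05 (0% of the array, lowest adjusted p 0.283) and none of the 4 connexin probes. At an unadjusted p under 0.05 limma found 4143 probes over the array, of which 6.72% of all tested were higher and 6.02% lower, and again none of the 4. With the paired arrays of a cow as a random replicate block, 848 probes passed adjustment, but the brightest probes of the 3 connexin genes did not (adjusted p = 0.274 for GJA1, 0.679 for GJA4 and 0.284 for GJC1).

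The data behind these ratios are raw spot intensities, each read against a detection threshold that lay 2 SD above the mean of the negative controls in the same channel. Between 55.8% and 77.5% of probes exceeded it in a channel. All 4 connexin probes exceeded their threshold in 12 of 12 readings, but by different margins. Raw intensities of both dyes on 1 array are not on one scale, so ratios were formed only after normalization by limma. In bulk RNA of this kind, fewer cells of a type and less RNA per cell cannot be told apart.

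**Figure D1:**
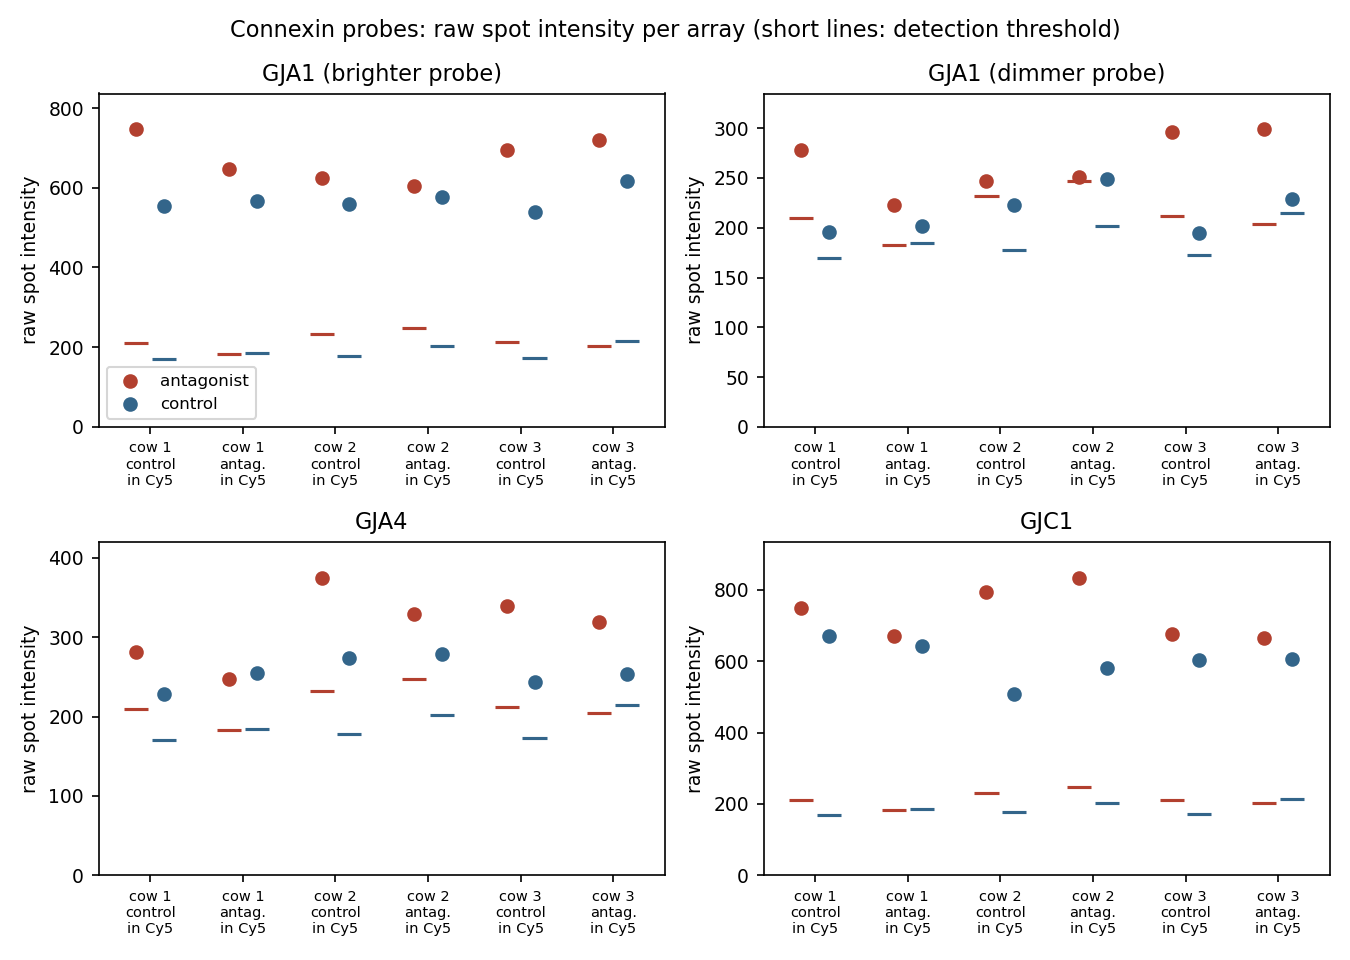
Raw spot intensity (linear axis from 0) of the 4 connexin probes on each of the 6 arrays, for antagonist (left point of each pair) and control (right point) RNA, with the detection threshold of each reading as a short line. The brighter GJA1 probe and GJC1 lie well above their thresholds (GJC1 between 509 and 834), whereas the dimmer GJA1 probe (195 to 299) and GJA4 (229 to 375) lie close to theirs.

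GJA1 encodes Cx43, the connexin that joins cumulus cells. Its brighter probe read 747 and 647 with antagonist in cow 1, against 554 and 566 in control (control in Cy5 first, here and for the other raw readings). In cow 2 it read 625 and 604 with antagonist, against 559 and 576 in control. In cow 3 it read 696 and 719 with antagonist, against 538 and 617 in control. The raw antagonist reading was the higher on all 6 arrays. Over all arrays both groups overlapped narrowly, with antagonist readings from 604 upward and control readings up to 617. The raw order alone is not a result about GJA1, since channels differed array-wide. With control in Cy5, the array-wide raw medians in cows 1, 2 and 3 were 253, 277 and 257 for antagonist, against 194, 191 and 195. With antagonist in Cy5 they were 200, 272 and 226, against 219, 234 and 226. After normalization the log2 ratios were 0.15 and 0.34 in cow 1, -0.15 and 0.15 in cow 2, and 0.16 and 0.36 in cow 3. The cow means were 0.25, -0.00047 and 0.26, so that cows 1 and 3 were nearly alike and cow 2 showed no net difference. The mean ratio was 0.17, with a 95% interval by limma of -0.05 to 0.39, or 0.967-fold to 1.31-fold (unadjusted p = 0.0934, adjusted p = 0.463).

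When channels were scaled between arrays, the control level of the brighter GJA1 probe was the same to within 0.02 in the 3 cows, at 9.10, 9.09 and 9.09 on the log2 intensity scale, and the antagonist level was 9.35, 9.09 and 9.35. The difference between cows in the GJA1 ratio thus lay on the antagonist side for this probe. Without cow 2, the cow with no net difference, the mean ratio was 0.25, with an unadjusted p of 0.0219 and an adjusted p of 0.62 by limma. That unadjusted p rests on leaving out the cow near 0. Without cow 1 the mean ratio was 0.13 (unadjusted p = 0.263 by limma), and without cow 3 it was 0.123 (unadjusted p = 0.334 by limma).

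The second GJA1 probe was dim, with readings between 1.01 and 1.47 times the threshold with antagonist and between 1.06 and 1.25 times in control. It read 278 and 223 with antagonist in cow 1, against 196 and 202 in control. In cow 2 it read 247 and 251 with antagonist, against 223 and 249 in control, and in cow 3 it read 296 and 299 with antagonist, against 195 and 229 in control. Raw values overlapped between groups, with cow 3 showing the widest gap. Its cow ratios were 0.22, -0.32 and 0.39, with a mean of 0.10 ± 0.37 (95% interval -0.38 to 0.58, adjusted p = 0.861 by limma). Cow 2 was the lowest for both GJA1 probes, but the dimmer one was below 0 there on both arrays. On this probe the control level varied too, at 7.53, 7.76 and 7.56 in cows 1, 2 and 3, beside antagonist levels of 7.76, 7.44 and 7.95 (log2 intensity). The steady control level of the brighter probe was therefore not seen on the dimmer one.

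GJA4 encodes Cx37, the connexin of the oocyte side in the mouse. Its probe read 282 and 247 with antagonist in cow 1, against 229 and 255 in control. In cow 2 it read 375 and 329 with antagonist, against 274 and 279 in control. In cow 3 it read 339 and 319 with antagonist, against 243 and 254 in control. These readings were 1.33 to 1.62 times the threshold with antagonist and 1.18 to 1.54 times in control, so the probe was above background but only by a small margin, and readings of both groups overlapped. The log2 ratios were -0.07 and 0.06 in cow 1, -0.02 and 0.05 in cow 2, and 0.16 and 0.42 in cow 3. Cows 1 and 2 had means of -0.0081 and 0.01, and cow 3 alone had 0.29. The mean ratio of 0.10 had a 95% interval of -0.14 to 0.34, or 0.908-fold to 1.26-fold (adjusted p = 0.682 by limma), and without cow 3 it was 0.0033.

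Levels of GJA4 by channel were 7.84, 8.03 and 8.11 with antagonist in cows 1, 2 and 3, against 7.85, 8.02 and 7.82 in control (log2 intensity). Cow 2 was thus higher than cow 1 in both groups alike, while cow 3 was high with antagonist alone. With the mean of the negative controls subtracted in place of the normexp correction, a setting chosen after the data were seen, the GJA4 ratio in cow 3 was 0.63, with -0.01 and 0.05 in cows 1 and 2 and a mean of 0.22 ± 0.36. The size of the GJA4 ratio in cow 3 therefore depended on how background was removed, and its order over cows 1, 2 and 3 did not change.

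GJC1 encodes Cx45. Its probe read 748 and 670 with antagonist in cow 1, against 672 and 644 in control. In cow 2 it read 794 and 834 with antagonist, against 509 and 580 in control. In cow 3 it read 676 and 665 with antagonist, against 603 and 605 in control. Cow 2 held both the highest antagonist readings and the lowest control readings, while over all arrays the lowest antagonist reading, 665, lay just under the highest control reading, 672. The log2 ratios were -0.12 and 0.20 in cow 1, 0.39 and 0.64 in cow 2, and -0.06 and 0.28 in cow 3. The cow means were 0.04, 0.51 and 0.11, above 0 in all 3 cows, as were those of 19.3% of all probes tested, and GJC1 was the one connexin probe of 4 with this property. The 95% interval of the mean was -0.12 to 0.56, or 0.92-fold to 1.48-fold (unadjusted p = 0.139, adjusted p = 0.523 by limma). Without cow 2 the mean was 0.08.

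By channel, GJC1 stood at 9.38, 9.55 and 9.28 with antagonist in cows 1, 2 and 3, against 9.34, 9.03 and 9.16 in control (log2 intensity). The larger GJC1 ratio of cow 2 thus combined the highest antagonist level with the lowest control level. In cow 2 the GJC1 ratio was positive in both dye orientations, whereas in cows 1 and 3 it was positive with antagonist in Cy5 and negative with control in Cy5.

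**Figure D2:**
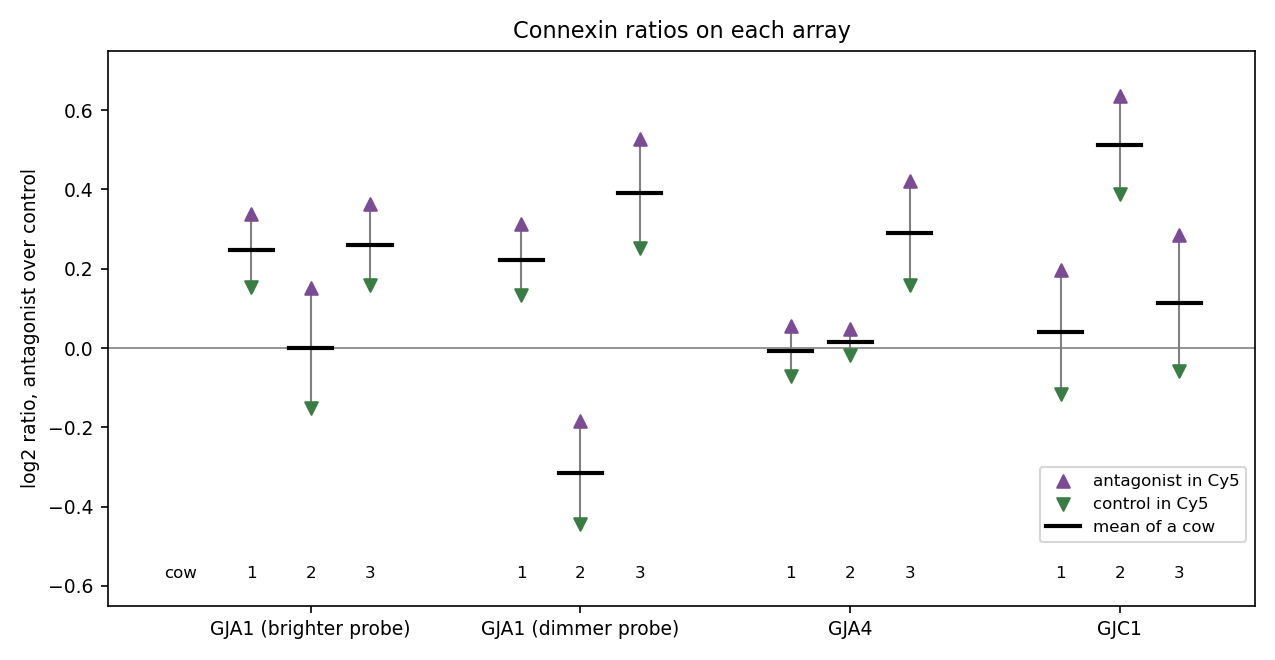
Log2 ratio of antagonist over control for the 4 connexin probes on each array, grouped by cow (1 to 3 from left to right), with antagonist in Cy5 as upward and control in Cy5 as downward triangles and the mean of a cow as a bar. The bars of GJA1 are lowest in cow 2, that of GJA4 is clearly above 0 in cow 3 (0.29), that of GJC1 is highest in cow 2 (0.51), and the upward triangle is the higher one in every pair.

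To test the differences between cows, the 6 arrays were fitted with 1 ratio per cow and a term for dye. Limma's F-test that the 3 cow effects were equal gave adjusted p-values of 0.012 and 4.17e-05 for the brighter and dimmer GJA1 probe, 0.00958 for GJA4 and 0.000402 for GJC1. All 4 connexin probes passed, as did 47.4% of all probes tested. The test sets cows against the error of the dye exchange alone, with 1 pair of RNAs per cow, so animals and RNA preparations cannot be told apart.

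Dye orientation went with a large part of the ratio on any single array. All 3 arrays with antagonist in Cy5 share 1 slide number in the scanner files with the control-in-Cy5 array of cow 2. The control-in-Cy5 arrays of cows 1 and 3 have other slide numbers, so dye and slide cannot be told apart in those cows. Each connexin ratio was higher with antagonist in Cy5 than with control in Cy5 in all 3 cows, by 0.23 and 0.24 for the 2 GJA1 probes, 0.15 for GJA4 and 0.30 for GJC1 (log2). The dye term passed at an adjusted p under 0.05 by limma for all 4 probes and for 64.6% of all probes tested, and the median absolute dye effect over the array was 0.211. On the 3 arrays with antagonist in Cy5 alone the ratios were 0.28 for GJA1, 0.17 for GJA4 and 0.37 for GJC1, and on the 3 with control in Cy5 alone they were 0.05, 0.02 and 0.07 in the same order of genes. None of the 4 connexin probes was positive on all 6 arrays, against 6.73% of all probes tested.

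The oocyte connexin gene GJA4 was set against the cumulus connexin gene GJA1 by the difference of their ratios within each cow, since levels of different probes are not comparable on these arrays. GJA4 minus GJA1, on the brighter GJA1 probe, was -0.25, 0.02 and 0.03 in cows 1, 2 and 3, with a mean of -0.07 ± 0.16 (n = 3). In cow 1 GJA1 alone was above 0, in cow 2 both were near 0, and in cow 3 both were above 0 by about the same amount. The exact two-sided sign-flip permutation test over cows gave p = 1, where 3 cows allow no p below 0.25, and the difference was positive on 3 arrays and negative on 3. With the dimmer GJA1 probe the differences were -0.23, 0.33 and -0.10, with a mean of -0.00088 ± 0.29 (exact permutation p = 1). No difference in response between these genes was detectable with 3 cows. The sign of the mean difference turned without cow 1, at 0.02, and with median centring in place of loess, at 0.0055.

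GJC1 minus the brighter GJA1 probe was -0.21, 0.51 and -0.15 in cows 1, 2 and 3 (mean 0.05 ± 0.40). GJC1 minus GJA4 was 0.05, 0.50 and -0.18 (mean 0.12 ± 0.34). In both, cow 2 stood apart from cows 1 and 3, and its ratios were also the widest over all probes tested, with an SD over probes of 0.42 beside 0.20 in cow 1 and 0.27 in cow 3. The exact permutation p-values were 1 and 0.75, and over the 4 pairs compared every adjusted p was 1.

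The deposited log2 ratios of the authors led to the same picture for these genes. In the authors' deposited table the brighter GJA1 probe had cow means of 0.24, -0.00047 and 0.25, GJA4 of -0.02, 0.02 and 0.26, and GJC1 of 0.04, 0.51 and 0.10. The authors' deposited table differed from the ratios given here by at most 0.06 on any array of a connexin probe, on the dimmer GJA1 probe.

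Other connexins and the pannexins, a related family of channel proteins, were described from a list. Of 21 listed symbols 14 were on the array, 8 were tested and 4 (GJA10, GJC3, GJD4 and PANX3) were above threshold in none of 12 readings. The mean ratios of the 8 ran from -0.10 to 0.11, with a median of -0.03 beside 0.0027 for all probes tested, and by limma all had unadjusted p-values above 0.05. PANX1, the broadly expressed pannexin, had -0.03 ± 0.10, and GJD2, a connexin of neurons, 0.11 ± 0.06. GJD2 was lowest in cow 2, at 0.03, against 0.14 in cows 1 and 3. It was the only 1 of the 8 with cow 2 lowest (12.5%, against 35.4% of all probes tested), so the GJA1 pattern was not common in this list.

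GJB2, which encodes Cx26, gave opposite results on its 2 probes, both above threshold in all readings. The brighter had cow ratios of -0.03, -0.13 and -0.14, with a mean of -0.10 ± 0.06. The dimmer had -0.05, 1.60 and 0.99, with a mean of 0.84 ± 0.84. The probes agreed near 0 in cow 1 and parted by over 1 log2 unit in cows 2 and 3, and neither passed by limma (adjusted p = 0.471 and 0.459). What each probe binds was not tested.

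**Figure D3:**
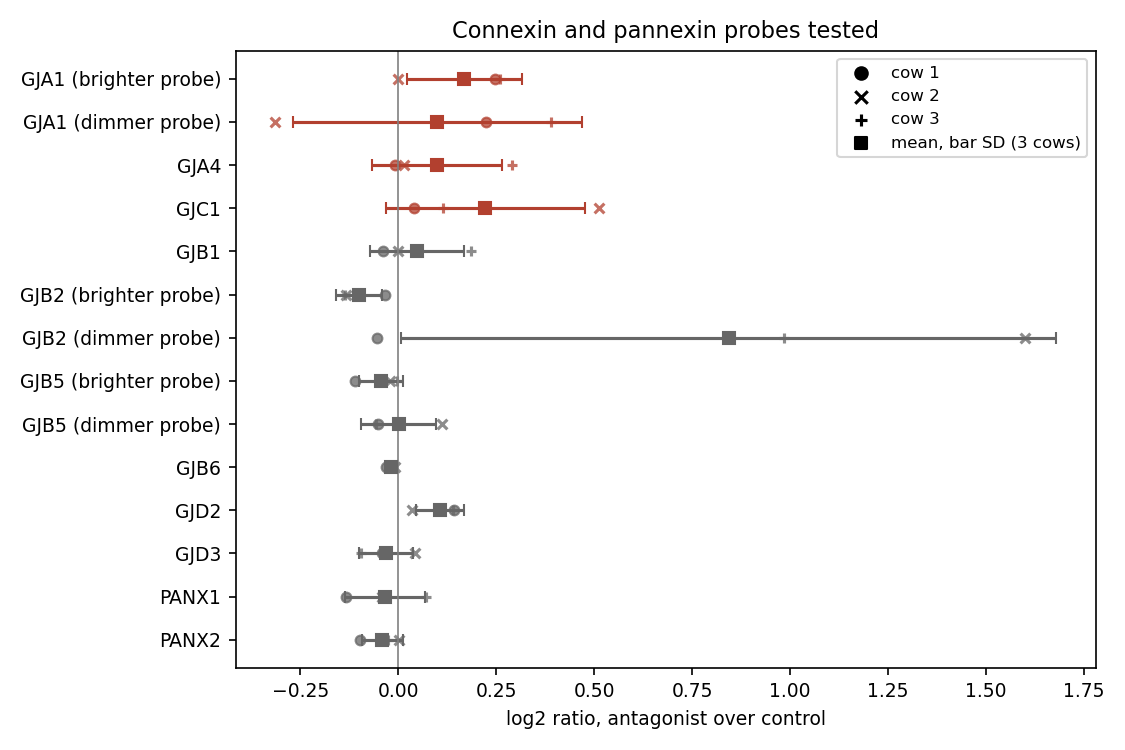
Log2 ratio of antagonist over control for the 4 connexin probes (top, red) and the tested probes of other connexins and pannexins (grey), with the 3 cows as separate markers and the mean with SD over cows as a square with a bar. All means lie between -0.10 and 0.22 except that of the dimmer GJB2 probe, at 0.84, whose cows range from -0.05 to 1.60.

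Proteins that scaffold, phosphorylate or internalize connexins were described from a list of which 27 of 30 symbols were on the array and 23 were tested. At an unadjusted p under 0.05 by limma 4 of the 23 were higher and 2 lower, against 6.72% and 6.02% of all probes tested, none passed adjustment, and the median ratio was 0.03. TJP1, the tight junction scaffold ZO-1 that binds the tail of the GJA1 protein, had -0.37 ± 0.18, and cows 1, 2 and 3 had -0.21, -0.57 and -0.32. EPS15, an endocytic adaptor, had -0.45 ± 0.24. The ratios of both were negative in each cow, whereas the brighter GJA1 probe was above 0 in cows 1 and 3 and at -0.00047 in cow 2. CSNK1E, a casein kinase, had 0.56 ± 0.11, and the stress-responsive MAP kinase gene MAPK7 had 0.11 ± 0.015. In control, MAPK7 was above threshold in only 4 of 6 readings and CSNK1E in 5 of 6. The tubulin genes TUBA1A and TUBB, which encode the tracks along which connexins are delivered, had 0.30 ± 0.17 and 0.80 ± 0.33. The cadherin genes CDH1 and CDH2, whose products hold junctional membranes together, had 0.03 ± 0.04 and -0.05 ± 0.14.

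Genes of the signals that pass through or act on the junction were on the array for 19 of 20 symbols, and 17 were tested, with a median of -0.0093 and a range from -0.15 to 0.37. At an unadjusted p under 0.05 by limma 2 of the 17 were higher and none lower, against 6.72% and 6.02% of all probes tested, and none passed adjustment. These were IMPDH1, which supplies guanine nucleotides for cyclic GMP, at 0.37 ± 0.22, and PRKAR1A, a regulatory subunit of protein kinase A, at 0.31 ± 0.21. Both genes were highest in cow 2, at 0.62 for IMPDH1 and 0.49 for PRKAR1A, the cow with the widest ratios over all probes tested. NPR2, the receptor that makes cyclic GMP in cumulus cells, was above threshold in 1 of 6 readings with antagonist and 1 of 6 in control and was not tested.

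All 11 genes of cumulus projections and adhesion were tested, with a median of 0.07. EZR, which links actin to the membrane, had 0.27 ± 0.07 and was the 1 gene of 11 with an unadjusted p under 0.05 by limma, against 6.72% higher and 6.02% lower of all probes tested. RDX, of the same family, had 0.24, -1.09 and -0.38 in cows 1, 2 and 3.

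The genes whose array ratios were most like those of each connexin were found by the root mean square (RMS) difference over the 6 arrays, among 12307 other genes. For GJA1 these were SLC9A9, TMEM79 and THUMPD3, with RMS differences of 0.059, 0.0594 and 0.07 against a median of 0.35 over all genes. For GJA4 they were IST1, AKAP13 and ZMAT4, at 0.0395, 0.0462 and 0.0627 against a median of 0.314. For GJC1 they were CDC7, GNA14 and EAF1, at 0.0492, 0.05 and 0.0512 against a median of 0.41. All 3 of the last set had cow 2 highest, between 0.51 and 0.57, as GJC1 had. This follows from how they were chosen. The likeness rests on 6 arrays that share 3 RNA pairs and is a description.

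The labelled cell type was checked by its markers: 18 of 18 oocyte genes were tested, and 17 were above threshold in all 12 readings. Their summed normalized intensity ran from 150100 to 163700 with antagonist and from 138700 to 163800 in control, with medians of 0.14, 0.20 and 0.10 in cows 1, 2 and 3. Granulosa and cumulus markers were on the array for 22 of 23 symbols, 9 were above threshold in all 12 readings, and AMH, CYP11A1, PGR and FOXL2 were in none. The summed intensity of granulosa and cumulus markers ran from 26980 to 45870 with antagonist and from 30450 to 57220 in control. This sum mostly followed STAR and SERPINE2, with mean log2 intensities of 14.33 and 13.86 beside a median of 7.52 for the list. The median ratios of the 16 tested were -0.02, -0.07 and 0.03 in cows 1, 2 and 3. Theca and stromal markers (8 of 11 tested, DCN and LUM never above threshold) summed to 4600 to 7603 with antagonist and to 4198 to 4993 in control, with medians of 0.08, -0.02 and 0.13. Blood and endothelial markers (7 of 10 tested, PECAM1 and ENG never above threshold) summed to 2811 to 3787 with antagonist and to 3662 to 4160 in control, with medians of -0.02, -0.02 and -0.01.

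How often cow 2 had the lowest ratio, as for GJA1, was counted after the values were seen. Cow 2 was the lowest for 11 of 16 granulosa and cumulus markers, 6 of 8 theca and stromal markers and 2 of 7 blood and endothelial markers, against 8 of 18 oocyte markers and 35.4% of all probes tested. Among the markers lowest in cow 2, FN1, of the extracellular matrix, had 0.27, -0.04 and 0.18 in cows 1, 2 and 3, and ACTA2, smooth muscle actin, had 0.15, -0.10 and 0.15, beside 0.25, -0.00047 and 0.26 for GJA1. VIM, the intermediate filament of mesenchymal cells, had 0.33, -0.04 and 1.52. HAS2, an enzyme of cumulus expansion, had -0.0026, -0.98 and -0.38. The largest mean ratios of the granulosa and cumulus list were unlike GJA1 and highest in cow 3. INHA had 0.20, -0.25 and 1.40, and INHBA, lowest in cow 1, had -0.40, 0.12 and 1.48. Other markers of these lists went the other way, with cow 2 the highest. COL1A2 had -0.32, 0.32 and 0.03, and STAR had -0.17, 0.14 and 0.05. FSHR, NR5A1 and CD44 were also highest in cow 2. Some counted gaps were small, as for CYP17A1, at 0.075, 0.033 and 0.035. The part of other cells in the connexin ratios was not tested.

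**Figure D4:**
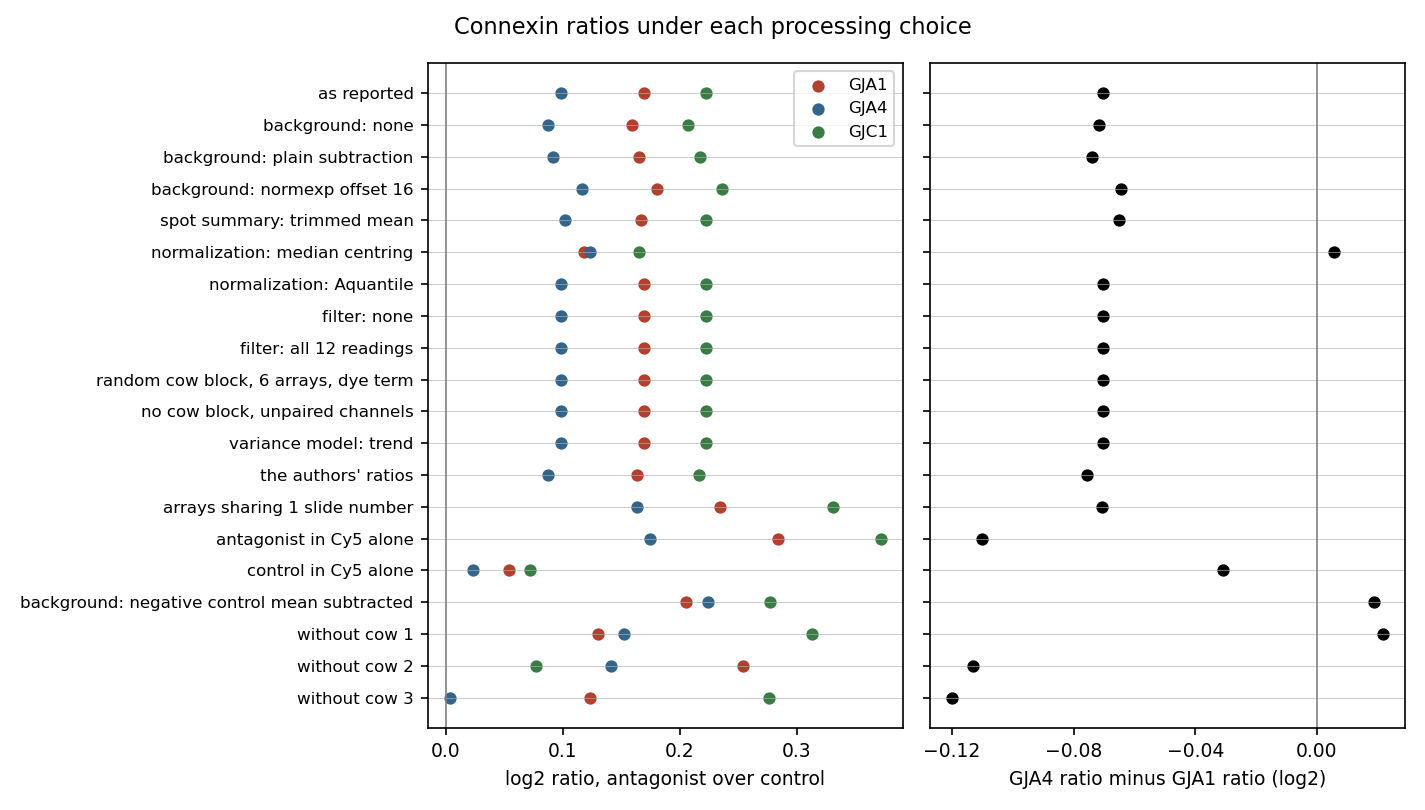
Left, log2 ratio of antagonist over control for GJA1 (brighter probe), GJA4 and GJC1 under each processing choice, with the cows as replicates; right, the GJA4 ratio minus the GJA1 ratio. All 3 ratios stay above 0, between 0.0033 (GJA4 without cow 3) and 0.37 (GJC1 with antagonist in Cy5 alone), and the difference lies on both sides of 0.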

How the data were processed

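Scanner files deposited by the authors hold raw spot intensity at 635 nm (Cy5) and 532 nm (Cy3) with local background, per the file headers; neither headers nor labels name scanner or software. Per the labels, RNA was amplified to antisense RNA before labelling. A deposited value table holds log2 ratios of unstated normalization; against the scanner values it ran as antagonist over control on every array (slopes 0.989 to 1, column medians 0.00101 and 0.00147 for cow 1, -0.00275 and 0.000808 for cow 2, 0.00178 and 0.00039 for cow 3, control in Cy5 first), so scale and direction were settled and centring is near 0.

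Of 45220 spots, 105 flagged ones were left out. Intensities were corrected with normexp (offset 50) and loess within arrays, control spots at weight 0 (limma 3.58.1, R 4.3.3). A probe was tested if it exceeded the mean plus 2 SD of 152 negative control spots in 3 or more of the 6 readings of one condition (32527 probes). Across all of these, dye-swapped arrays were averaged per cow and the 3 means tested against 0 (lmFit, eBayes, two-sided, Benjamini-Hochberg). Cows are paired by design, since the labels make each its own control. For each gene the brightest probe was named first. All member probes, the 3 genes most like each, and genes of the pathway lists (not the marker lists) at an unadjusted p under 0.05 were named by rule; others were named after their values were seen. The fits were tested on simulated data. Members and lists were chosen with earlier results of these data known. Symbols are those of the platform annotation. The small number of arrays limits precision.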

Additional observations from a re-analysis of the deposited data

Results flagged for a closer look

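The ratios of antagonist over control of the connexin probes differed between cows and between dye orientations by limma, though no mean ratio passed adjustment. Such differences were common on the array. At an adjusted p under 0.05, cows differed for 47.4% of all probes tested and the dye term passed for 64.6%. In cows 1 and 3 dye orientation and slide number cannot be told apart. The F-test sets cows against the error of the dye exchange alone, so animals and RNA preparations cannot be told apart. Between cows, the adjusted p of the F-test was 0.012 for the brighter GJA1 probe, 4.17e-05 for the dimmer one, 0.00958 for GJA4 and 0.000402 for GJC1. Between orientations, the ratio with antagonist in Cy5 exceeded that with control in Cy5 by 0.231 and 0.238 for the 2 GJA1 probes, 0.152 for GJA4 and 0.30 for GJC1 (log2). Groups of 3 cows are too small for a check on outlying samples.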

How the results depend on the processing

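The ratios of GJA1, GJA4 and GJC1 stayed above 0 and did not pass adjustment under any of 20, 19 and 19 alternatives. Their lowest adjusted p-values by limma were 0.108, 0.317 and 0.133. Some alternatives cannot change a ratio, so its sign could not turn there. These are scaling between arrays, other probe filters, the random block, the unpaired fit and a variance trend. The ratios ran from 0.0536 to 0.284 for GJA1, from 0.0033 to 0.224 for GJA4 and from 0.0718 to 0.372 for GJC1. Leaving out 1 cow gave 0.123 to 0.254, 0.0033 to 0.152 and 0.0766 to 0.313. GJA4 minus GJA1 turned from -0.07 to 0.0055 with median centring and to 0.0188 with the negative control mean subtracted, a setting added after the data were seen, and ran from -0.12 to 0.0218 without 1 cow. The cause was not tested. With a random replicate block for the paired arrays of a cow and a dye term, the ratios were unchanged (GJA1 0.169, adjusted p = 0.274), though 848 probes over the array passed, against 0; without pairing 9 passed. The probes at an unadjusted p under 0.05 and 1.5-fold numbered 793, against 1650 with antagonist in Cy5 alone, 2270 with control in Cy5 alone, 2860 with the negative control mean subtracted, and 434 to 2420 without 1 cow. On 4 arrays that share a slide number in the scanner files, GJC1 had 0.331 (unadjusted p = 0.0232, adjusted p = 0.327); dye was not balanced there. Signal over background limits GJA4 and the dimmer GJA1 probe most.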
